A study of Homo sapiens with 6 samples.

Results

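The genes described here encode the proteins of the mitochondrial ribosome. They were chosen by name, as every gene whose only symbol in the platform annotation is MRPL or MRPS followed by a number, with the brightest probe set standing for each gene. The rule found 75 genes among the 19775 genes with a single symbol, 48 named MRPL and 27 named MRPS, read by 140 probe sets in all. By the present structures 50 of them belong to the large subunit, among them MRPS30 and MRPS18A despite their names, and 25 to the small subunit. MRPL53 and MRPS24 were read only by probe sets that carry several symbols, so neither is a member.

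All samples were L428, an established line of Hodgkin lymphoma cells. The 3 arrays of one group came from cells nucleofected with an inhibitor of the microRNA miR-9 built from locked nucleic acid (LNA), and the 3 of the other from cells given a scrambled LNA. RNA was collected at 9 h from both, and each sample was read on 1 Affymetrix HG-U133 Plus 2.0 array. Both groups went through nucleofection, and every comparison is between the LNAs, since untreated cells are not analysed here. Levels are deposited log2 values, on which a difference of 1 is a doubling, and differences are miR-9 LNA minus scrambled LNA. Errors of differences are standard errors from limma, a linear model with a shared estimate of the spread, and errors of means are SDs over 3 arrays. The labels do not say whether the replicates were separate cultures, so the p-values measure only the spread between these samples.

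Mitochondria translate a small set of membrane proteins of the respiratory chain on ribosomes of their own. The RNA of these ribosomes comes from the mitochondrial genome, whereas every protein of both subunits is encoded in the nucleus, made in the cytosol and imported. Some of the proteins have counterparts in bacterial ribosomes and others were gained in mitochondria. The inhibitor was directed at miR-9, whose 5p arm is shown because its seed, bases 2 to 8 in capitals, is the part that pairs with target mRNAs. The mature sequence is from RefSeq, where 3 loci (GRCh38.p14) give the same one.
hsa-miR-9-5p: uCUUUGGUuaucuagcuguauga

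Upstream sequence of the members was taken from RefSeq (GRCh38.p14), from 250 bases before to 50 after the first listed start of each gene, and 67 of the 75 members matched. The 3 motifs below were searched on both strands by exact match: CCGGAA, the core bound by ETS factors such as GABPA, AAGATGGC, bound by YY1, and GCATGCGC, the core bound by NRF1. CCGGAA lay in 37 of the 67 member promoters (55.2%), against 29.8% of the promoters of protein-coding genes tested on these arrays and 17.6% of all gene promoters. AAGATGGC lay in 19 (28.4%), against 5.5% and 3.03%. GCATGCGC lay in 6 (8.96%), against 5.51% and 3.27%. A member could hold several motifs, and 46 (68.7%) held at least 1 of the 3, against 36.5% and 21.9%. Of the 63 CCGGAA matches 44 began within 100 bases before the start, and 14 of the 20 AAGATGGC matches lay after it. These matches describe letters in a window, and no factor's binding was measured.

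The 100 bases before the start are printed for 8 members, with matches to the 3 motifs in capitals and the last base next to the start. MRPS10, MRPL44, MRPL43 and MRPS23 are shown because each is among the members of smallest p below and holds 2 CCGGAA matches, directly adjacent in MRPL43 and MRPS23. MRPL47 combines CCGGAA with AAGATGGC, and MRPL17 holds 3 GCATGCGC matches, of which 2 overlap on opposite strands. MRPS5, with the smallest p of all members, and MRPL4, with the most negative difference, hold none of the 3 motifs in this stretch.
MRPS10 promoter, chr6:42217862-42217961, minus strand: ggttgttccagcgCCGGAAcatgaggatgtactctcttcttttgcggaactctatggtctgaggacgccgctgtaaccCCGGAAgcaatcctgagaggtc
MRPL44 promoter, chr2:223957363-223957462, plus strand: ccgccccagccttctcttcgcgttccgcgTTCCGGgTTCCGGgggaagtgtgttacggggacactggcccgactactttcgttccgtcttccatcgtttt
MRPL43 promoter, chr10:100987498-100987597, minus strand: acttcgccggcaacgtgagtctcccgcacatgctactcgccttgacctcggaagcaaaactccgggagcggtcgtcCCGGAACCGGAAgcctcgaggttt
MRPS23 promoter, chr17:57850045-57850144, minus strand: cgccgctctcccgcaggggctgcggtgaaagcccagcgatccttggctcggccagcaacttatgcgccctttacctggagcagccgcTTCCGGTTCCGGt
MRPL47 promoter, chr3:179604639-179604738, minus strand: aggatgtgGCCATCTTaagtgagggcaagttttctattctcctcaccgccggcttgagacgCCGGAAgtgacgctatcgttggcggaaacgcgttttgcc
MRPL17 promoter, chr11:6683341-6683440, minus strand: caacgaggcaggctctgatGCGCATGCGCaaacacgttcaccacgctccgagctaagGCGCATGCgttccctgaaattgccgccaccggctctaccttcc
MRPS5 promoter, chr2:95121809-95121908, minus strand: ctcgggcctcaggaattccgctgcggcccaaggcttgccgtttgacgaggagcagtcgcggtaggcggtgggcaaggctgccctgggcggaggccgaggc
MRPL4 promoter, chr19:10251851-10251950, plus strand: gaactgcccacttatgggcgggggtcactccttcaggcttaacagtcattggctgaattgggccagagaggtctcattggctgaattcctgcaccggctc

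In the whole series the array medians lay between 7.10 and 7.15, and 27307 probe sets with a mean of at least 7.11 were tested. The upper end of the distribution differed between arrays: the 90th percentile was 9.53 to 9.57 on the miR-9 LNA arrays, 9.45 and 9.47 on scrambled arrays 2 and 3, and 9.28 on scrambled array 1. Scrambled array 1 also stood apart in the labelling control dap, at 10.34 against 8.15 to 8.80 elsewhere. The cell line's markers were present: all 6 Hodgkin markers, TNFRSF8 (CD30), FSCN1, CCL17, IRF4, TRAF1 and CD70, lay above the level filter with means of 10.31 to 12.70, and 0 of 5 T-cell markers did. Of 4 B-cell markers 2 passed it, at up to 7.36, and 3 of 6 epithelial, stromal and endothelial markers, at up to 8.16. The small number of arrays limits the precision of every value.

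The mitochondrial ribosomal protein genes were well expressed in L428 under both LNAs. The mean log2 level of the 75 brightest probe sets ranged from 8.20 for MRPL2 to 12.55 for MRPL3 with a median of 10.30, and all 75 passed the filter. As deposited, 70 of the 75 (93.3%) had a higher mean with the miR-9 LNA, but 29 did after quantile normalization and 26 after cyclic loess. The former gives all arrays one distribution of values, and the latter removes differences between arrays that depend on level. The differences were small in the deposited values, from -0.10 to 0.31 with a median of 0.15, and the largest was a 1.24-fold difference. No member passed the test.

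At an adjusted p under 0.05 the limma test called 0 of the 75 members and 0.0% of all 27307 tested probe sets, and the lowest adjusted p of a member was 0.296. At an unadjusted limma p under 0.05, 10 members (13.3%) lay higher in the miR-9 LNA group, against 13.8% of all tested probe sets, and 0 were lower, against 0.626%. For 16 members (21.3%) every miR-9 LNA array lay above every scrambled array, against 18.1% of all tested probe sets, and for 0 members below, against 3.97%. With the replicate number as a block, 12 members had an unadjusted limma p under 0.05 on the higher side, against 21.8% of all tested probe sets. A positive difference was found in 66.9% of all tested probe sets, whose median difference was 0.062. In RNA from a whole culture, fewer cells of a type and less RNA per cell cannot be told apart.

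The background depended on level, and the members are bright. In 5 equal bins of level, the median difference over all tested probe sets was -0.027, -0.005, 0.06, 0.14 and 0.19 from the dimmest to the brightest. The brightest bin held 63 of the members, whose median difference was 0.16 beside the bin's 0.19. In that bin 95.3% of all probe sets had a positive difference and 31.2% an unadjusted p under 0.05 on the higher side, and 8 of the 63 members did. The groups did not overlap on the higher side for 34.6% of that bin and for 14 of the 63. The next bin held 10 members with a median of 0.09 beside 0.14, of which 2 had such a p against 24.9% of the bin. A positive difference was found in 86.4% of the bin. MRPL2 and MRPL55, the remaining members, lay in the middle bin. The share of members on the higher side at that p was below that of probe sets as bright, and no test was made of this gap.

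**Figure D1:**
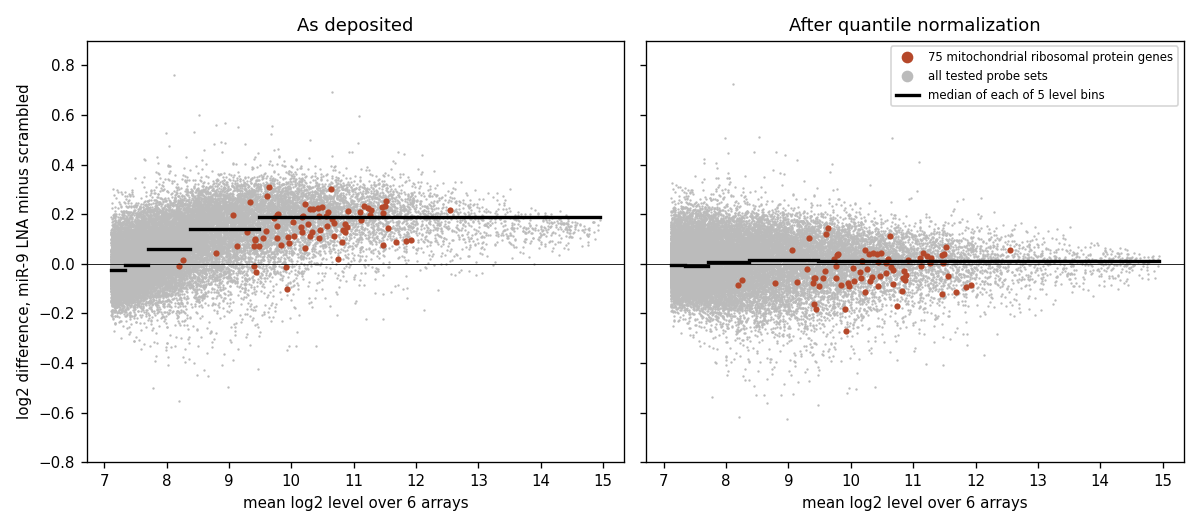
Log2 difference, miR-9 LNA minus scrambled LNA, against mean log2 level over 6 arrays, for all tested probe sets (grey) and the 75 mitochondrial ribosomal protein genes (red), as deposited and after quantile normalization; black lines are the medians of 5 bins of level. As deposited the bin medians climb from -0.027 to 0.19 and 70 members lie above 0, whereas after quantile normalization 29 do.

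Scaling the arrays to one distribution removed most of this shift. After quantile normalization the members' median difference was -0.03, with 29 above and 46 below 0, while 51.5% of all tested probe sets and 56.2% of the brightest bin were positive. Under that normalization 0 members had an unadjusted limma p under 0.05 on the higher side, against 2.38% of all tested probe sets, and 3 had one on the lower side, against 2.17%. These 3 were MRPL4 at -0.27, MRPL12 at -0.18 and MRPL28 at -0.16. Cyclic loess gave a median of -0.04, with 26 above and 49 below 0, while 50.3% of all tested probe sets were positive. It left 0 members on the higher side at that p, against 2.27%, and 3 on the lower side, against 2.67%. The direction of the family as a whole therefore followed the scaling of the arrays, and differences below are in the deposited values unless the scaling is named.

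The members moved together by array. Their mean level was 10.51, 10.34 and 10.36 on miR-9 LNA arrays 1, 2 and 3, and 10.16, 10.33 and 10.29 on scrambled arrays 1, 2 and 3. MiR-9 LNA array 1 was thus the highest and scrambled array 1 the lowest, while the arrays numbered 2 and 3 differed little between groups. Gene by gene, miR-9 LNA array 1 was the highest of the 6 for 56 members, against 40.3% of all probe sets in the upper 2 bins of level. Scrambled array 1 was the lowest for 50 members, against 65.5%. Without scrambled array 1 the median difference over the members was 0.10, and 4 of the 75 had an unadjusted limma p under 0.05 on the higher side, against 10.0% of all tested probe sets. Without both arrays numbered 1, a comparison chosen after the data were seen, the median was 0.03.

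After quantile normalization the members' mean levels were 10.39, 10.30 and 10.27 with the miR-9 LNA and 10.38, 10.36 and 10.31 with the scrambled LNA, so the arrays numbered 1 were the highest of their groups. The 3'-minus-5' difference of the ACTB control probe sets, a measure of RNA and labelling quality, was 0.87 on miR-9 LNA array 1, 0.58 on scrambled array 1 and from 0.22 to 0.40 on the remaining 4. The same difference of the GAPDH control probe sets was 0.06 on miR-9 LNA array 1, 0.19 on scrambled array 1 and from -0.05 to 0.01 on the remaining 4. The 2 controls thus differ in which array stands highest. The part of RNA and labelling quality in the members' levels was not tested. By replicate number, the miR-9 LNA array was the higher one in all 3 same-numbered pairs for 36 of the 75 members, against 40.2% of all tested probe sets and 67.0% of the brightest bin. Leaving out 1 array lowered 58 of the 70 positive differences by over 1.5 times, 40 of them without miR-9 LNA array 1 and 35 without scrambled array 1, some under both.

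**Figure D2:**
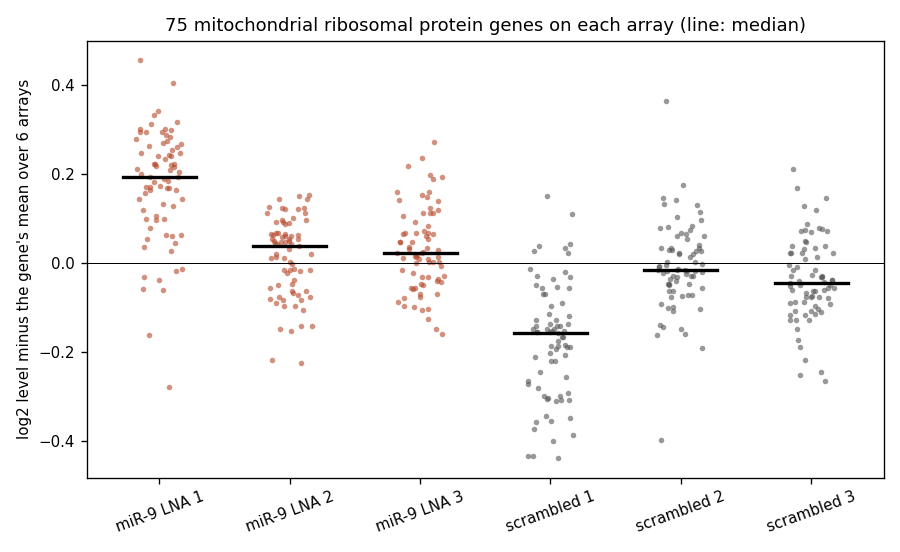
Log2 level of each of the 75 members on each array minus that gene's mean over the 6 arrays, as deposited; points are genes and lines are medians. The points of miR-9 LNA array 1 centre on 0.20 and those of scrambled array 1 on -0.16, and the medians of the other 4 arrays lie between -0.04 and 0.04.

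The 50 large-subunit genes had a median difference of 0.14, with 45 above 0, and the 25 small-subunit genes one of 0.16, with all 25 above 0, while 19 of 50 and 10 of 25 were above 0 after quantile normalization and 18 and 8 after cyclic loess. At an unadjusted limma p under 0.05, 4 large-subunit (8.0%) and 6 small-subunit genes (24.0%) lay on the higher side, against 13.8% of all tested probe sets and 31.2% of the brightest bin. With the replicate block 7 of the 50 large-subunit and 5 of the 25 small-subunit genes did, against 21.8% of all tested probe sets. The 45 proteins with a bacterial counterpart had a median of 0.14 and the 30 without one 0.17, again with most members below 0 after quantile normalization (16 of 45 and 13 of 30 above). The difference between the subunits was not tested. All 5 members with a negative difference, MRPL4, MRPL38, MRPL12, MRPL28 and MRPL2, belong to the large subunit.

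**Figure D3:**
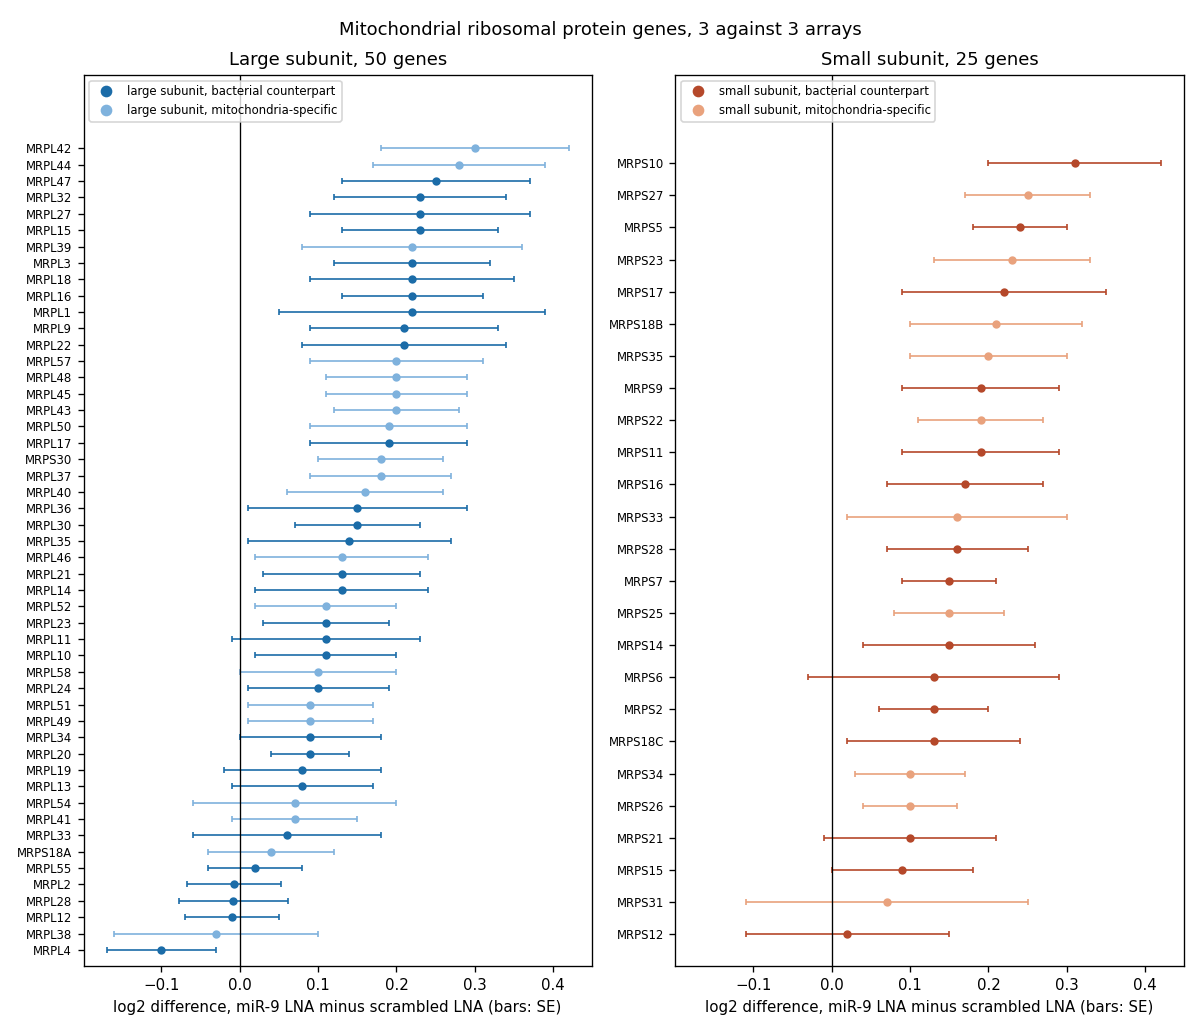
Log2 difference, miR-9 LNA minus scrambled LNA, for each of the 75 members in the deposited values, with limma standard errors from 3 arrays a group, by subunit and by whether the protein has a bacterial counterpart. MRPS10 at 0.31 and MRPL42 at 0.30 lie highest and MRPL4 at -0.10 lowest; after quantile normalization 46 of the 75 are below 0.

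Around the catalytic centre of the large subunit, where peptide bonds form, the 5 listed proteins gave differences of both signs. MRPL16, which sits beside the tRNA sites, was at 10.60, 10.52 and 10.50 under the inhibitor and at 10.12, 10.45 and 10.37 with the scrambled LNA. Its groups did not overlap, scrambled array 1 lay lowest, and the difference was 0.22 ± 0.09 (limma unadjusted p = 0.0441, adjusted p = 0.338), or 0.13 without that array. MRPL3, the brightest member, was at 12.77, 12.60 and 12.62 against 12.25, 12.55 and 12.54, giving 0.22 ± 0.10 (limma adjusted p = 0.359), which was 0.12 without scrambled array 1. MRPL27, whose bacterial counterpart reaches into the active site, differed by 0.23 ± 0.14 with overlapping groups, and by 0.14 without scrambled array 1. MRPL2, a protein that helps to shape the same site, was the dimmest member, at 8.25, 8.14 and 8.19 against 8.23, 8.15 and 8.22.

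MRPL4, which lines the upper exit tunnel, had the most negative difference of the members. It was at 9.87, 9.84 and 9.93 with the miR-9 LNA and at 10.08, 9.99 and 9.87 with the scrambled LNA, so the groups overlapped through array 3. The difference was -0.10 ± 0.07 (limma unadjusted p = 0.204, adjusted p = 0.526), and -0.27 after quantile normalization. A second MRPL4 probe set, 223743_s_at, was at 9.19, 9.26 and 9.35 against 9.47, 9.52 and 9.36, without overlap and with a difference of -0.18 ± 0.07 (limma unadjusted p = 0.0353, adjusted p = 0.324). The third MRPL4 probe set, 223742_at, differed by 0.03 ± 0.07. As deposited, the probe sets of this gene thus did not give one direction. After quantile normalization 223743_s_at was at -0.34 and 223742_at at -0.02, so all 3 probe sets lay below 0. Cyclic loess gave -0.29 for the brightest, -0.35 for 223743_s_at and -0.03 for 223742_at.

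At the rim of the exit tunnel, where the nascent protein leaves towards the inner membrane, all 6 listed genes had positive differences, from 0.10 to 0.25 with a median of 0.20, and 4 of the 6 kept a positive sign after quantile normalization and 3 after cyclic loess. MRPL47 was at 11.81, 11.62 and 11.53 against 11.17, 11.61 and 11.42, and array 3 of the miR-9 LNA lay below scrambled array 2. Its difference was 0.25 ± 0.12 (limma adjusted p = 0.384). MRPL45, which anchors the ribosome to the membrane, was at 9.86, 9.84 and 9.94 against 9.50, 9.81 and 9.73, without overlap and with a difference of 0.20 ± 0.09 (limma adjusted p = 0.363). MRPL22, MRPL17, MRPL23 and MRPL24 differed by 0.21, 0.19, 0.11 and 0.10, each with overlapping groups. Without scrambled array 1 MRPL47 was at 0.14, MRPL45 at 0.11 and MRPL22 and MRPL17 at 0.09, and without miR-9 LNA array 1 MRPL23 was at 0.06 and MRPL24 at 0.04.

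The stalk recruits translation factors. Its 3 listed genes had differences of 0.11 for MRPL10, 0.11 for MRPL11 and -0.01 for MRPL12, and all 3 were below 0 after quantile normalization and after cyclic loess. MRPL12, the flexible arm of the stalk, was at 9.85, 9.94 and 9.92 with the miR-9 LNA and 9.88, 9.99 and 9.87 with the scrambled LNA. Its groups overlapped (limma adjusted p = 0.940). MRPL11, which forms the base, was at 10.39 on miR-9 LNA array 1 and at most at 10.09 on the other 5 arrays. Without miR-9 LNA array 1 MRPL11 was at -0.03, and without scrambled array 1 MRPL10 was at 0.02.

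The central protuberance faces the small subunit and contacts the tRNAs, and 5 of its 6 listed genes had a positive difference, a count of 2 after quantile normalization and after cyclic loess. MRPL48 was at 9.89, 9.84 and 9.95 against 9.57, 9.63 and 9.86, so the groups overlapped, and it differed by 0.20 ± 0.09 (limma unadjusted p = 0.0508, adjusted p = 0.349). MRPL18 differed by 0.22, MRPL40 by 0.16, MRPL46 by 0.13 and MRPL58, a peptidyl-tRNA hydrolase built into the ribosome, by 0.10. Without scrambled array 1 MRPL18 was at 0.06, and without miR-9 LNA array 1 MRPL40 was at 0.05, MRPL46 at 0.01 and MRPL58 at 0.00653. MRPL38 differed by -0.03 ± 0.13. It was at 9.16, 9.55 and 9.55 with the miR-9 LNA and at 9.29, 9.57 and 9.51 with the scrambled LNA. Its array 1 was thus the lowest of each group, whereas the family mean was highest on miR-9 LNA array 1.

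Among the large-subunit proteins gained in mitochondria, MRPL42 and MRPL44 had the largest differences. MRPL42 was at 10.88, 10.72 and 10.75 against 10.20, 10.56 and 10.68, with no overlap, and differed by 0.30 ± 0.12 (limma unadjusted p = 0.0409, adjusted p = 0.333). MRPL44, which has the fold of an RNase III enzyme, was at 9.67, 9.76 and 9.80 against 9.22, 9.56 and 9.63, with no overlap, and differed by 0.28 ± 0.11 (limma unadjusted p = 0.0395, adjusted p = 0.331). In both genes scrambled array 1 lay well below the rest, and without it the differences were 0.16 and 0.15. The other MRPL44 probe set, 218202_x_at, much dimmer, differed by 0.00992 ± 0.06 with overlapping groups.

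MRPL43 was at 9.23, 9.07 and 9.17 against 8.87, 8.92 and 9.09, a difference of 0.20 ± 0.08 (limma unadjusted p = 0.0398, adjusted p = 0.332) with 1 array of each group overlapping. Its probe sets 224332_s_at and 230026_at, of similar level, differed by 0.17 ± 0.08 and 0.04 ± 0.06, both with overlapping groups. MRPL15, a protein with a bacterial counterpart, was at 11.68, 11.44 and 11.60 against 11.15, 11.43 and 11.45, and differed by 0.23 ± 0.10 (limma adjusted p = 0.355), or 0.14 without scrambled array 1. After MRPL3, the brightest members were MRPL20, MRPL51 and, of the small subunit, MRPS15, and each had a difference of 0.09. Without miR-9 LNA array 1 MRPL51 was at 0.02 and MRPS15 at -0.00562. MRPL20, an early-binding protein of the large subunit, was at 11.99, 11.98 and 11.95 against 11.87, 11.87 and 11.90, without overlap, and was at -0.09 after quantile normalization. Of the dim members, MRPL55 differed by 0.02 ± 0.06 and MRPS18A by 0.04 ± 0.08.

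In the small subunit, which binds the mRNA and holds the decoding centre, all 25 genes had a positive difference as deposited, 10 did after quantile normalization and 8 after cyclic loess. The smallest p of the family was that of MRPS5, which lies where the mRNA enters. MRPS5 was at 10.41, 10.34 and 10.29 with the miR-9 LNA and at 10.10, 10.13 and 10.10 with the scrambled LNA. The groups were apart on every array, including those numbered 2 and 3, and the difference was 0.24 ± 0.06 (limma unadjusted p = 0.00443, adjusted p = 0.296). With any single array left out it was 0.21 to 0.27, and quantile normalization gave 0.05. The other 3 tested MRPS5 probe sets, all much dimmer, differed by 0.03, -0.01 and -0.03.

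MRPS27, a pentatricopeptide-repeat protein, was at 9.60, 9.40 and 9.37 against 9.18, 9.23 and 9.22. All 3 miR-9 LNA arrays lay above the scrambled ones, and the difference was 0.25 ± 0.08 (limma unadjusted p = 0.0123, adjusted p = 0.296), or 0.10 after quantile normalization. MRPS7, a protein of the subunit's head, was at 11.01, 10.98 and 10.90 against 10.75, 10.87 and 10.83, without overlap. It differed by 0.15 ± 0.06 (limma unadjusted p = 0.0482, adjusted p = 0.344) and by -0.04 after quantile normalization.

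MRPS10 had the largest difference of the family. It was at 9.80, 9.78 and 9.79 with the miR-9 LNA and at 9.68, 9.24 and 9.53 with the scrambled LNA. The miR-9 LNA arrays were nearly equal, and the difference of 0.31 ± 0.11 (limma unadjusted p = 0.0226, adjusted p = 0.303) came from the scrambled arrays, above all array 2, without which it was 0.19. Another MRPS10 probe set of similar level, 224247_s_at, was at 9.79, 9.50 and 9.57 against 9.09, 9.95 and 9.68. There scrambled array 2 was the highest of the 6, the groups overlapped and the difference was 0.05 ± 0.20. The third MRPS10 probe set, 222522_x_at, followed the second, with scrambled array 2 again the highest and a difference of 0.10 ± 0.20.

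MRPS22, a small-subunit protein gained in mitochondria, was read by 4 probe sets that gave one direction. At the brightest it was at 10.39, 10.17 and 10.29 against 10.00, 10.15 and 10.11, a difference of 0.19 ± 0.08 (limma unadjusted p = 0.038, adjusted p = 0.328). At 226257_x_at MRPS22 was at 10.29, 10.12 and 10.18 against 9.89, 9.95 and 10.02, a difference of 0.25 ± 0.07 (limma unadjusted p = 0.00906, adjusted p = 0.296). The groups did not overlap at any of the 4, and all 4 names end in _x_at, which marks probe sets that can also read other transcripts. MRPS23 was at 11.46, 11.23 and 11.15 against 10.91, 11.15 and 11.09, a difference of 0.23 ± 0.10 (limma unadjusted p = 0.0493, adjusted p = 0.347) with the groups touching at 11.15, and was at 0.15 without miR-9 LNA array 1. The other tested MRPS23 probe set differed by 0.07.

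Of the other listed proteins of the mRNA path and decoding centre, MRPS9 and MRPS11 each differed by 0.19 and MRPS2 by 0.13, with overlapping groups, and without miR-9 LNA array 1 MRPS9 and MRPS11 were at 0.11. MRPS12, a protein of the decoding centre itself, was at 10.58, 10.79 and 10.89 with the miR-9 LNA and 10.47, 10.81 and 10.91 with the scrambled LNA. Its arrays paired closely by replicate number, and it differed by 0.02 ± 0.13 (limma adjusted p = 0.952). The 3 paralogues of the MRPS18 family differed by 0.21 for MRPS18B, 0.13 for MRPS18C and 0.04 for MRPS18A, with overlapping groups, and after quantile normalization MRPS18A and MRPS18C were at -0.08 and -0.05. Without miR-9 LNA array 1 MRPS18C was at 0.04, and without scrambled array 3 MRPS18B was at 0.14. The other MRPS18A probe set, 218385_at, of similar level, was at 8.80, 8.66 and 8.69 against 8.52, 8.63 and 8.54, without overlap and with a difference of 0.16 ± 0.07 (limma unadjusted p = 0.0486, adjusted p = 0.345). The other MRPS18B probe set, 208907_s_at, differed by 0.06 ± 0.12 with overlapping groups.

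**Figure D4:**
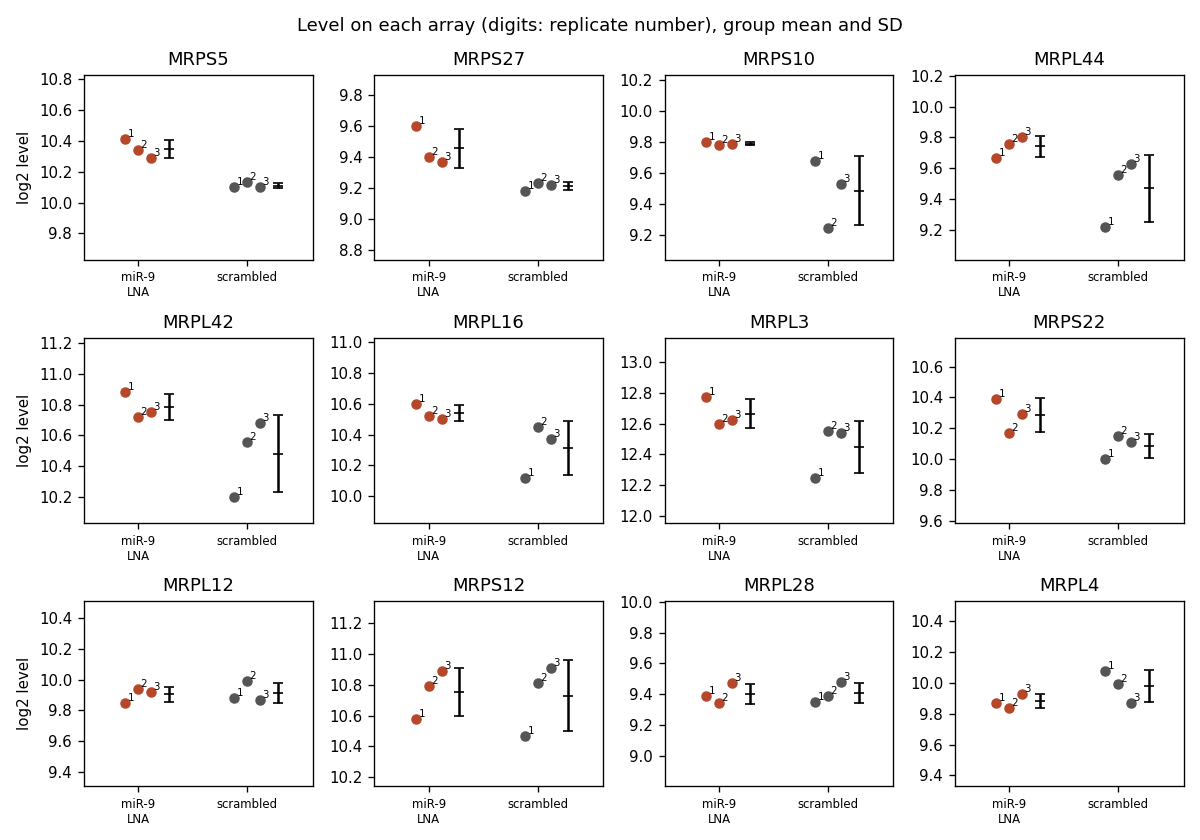
Log2 level on each array for 12 members, with the replicate number beside each point and the group mean and SD at the right of each group; every panel spans the same range of log2 units. The groups are apart for MRPS5 and MRPS27, scrambled array 1 is low for MRPL44, MRPL42, MRPL16 and MRPL3, and MRPL12, MRPS12 and MRPL28 show no separation.

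Different probe sets of one gene did not always give one direction. Of the 75 genes 37 had several probe sets, and 29 had at least 2 that were tested. The signs differed between tested probe sets in 8 of these 29, and in 0 of them did probe sets of opposite sign each have an unadjusted limma p under 0.05. For 46 members the brightest probe set is one whose name, in _s_at or _x_at, marks it as able to read more than 1 transcript. Whether those transcripts come from 1 gene or from several was not examined. Among the 39 members with a tested probe set without such a mark, 33 had a positive difference. On the higher side 4 had an unadjusted limma p under 0.05. Positive differences made up 66.9% of all tested probe sets, and 86.4% and 95.3% of the upper 2 bins of level. That p was reached on the higher side by 13.8% of all tested probe sets, and by 24.9% and 31.2% of those bins.

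The other genes needed for mitochondrial translation gave differences of the same order. Of 78 genes in 5 lists, 75 were named on the array by a single symbol and 73 passed the filter. As deposited 71 of the 73 were higher with the miR-9 LNA, with a median of 0.16, whereas after quantile normalization 44 and after cyclic loess 42 were. As deposited, 66.9% of all tested probe sets, and 86.4% and 95.3% in the upper 2 bins of level, had a positive difference. At an adjusted p under 0.05 the limma test called 0 of them. At an unadjusted limma p under 0.05, 21 (28.8%) lay on the higher side and 0 on the lower, beside 24.9% and 31.2% on the higher side in the upper 2 bins of level. The levels of the lists differ from those of the members, and the gap between 28.8% and the members' 13.3% was not tested.

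The 4 measured subunits with other symbols had a median of 0.23 as deposited and 0.04 after quantile normalization. PTCD3, a pentatricopeptide-repeat protein of the small subunit, was at 10.19, 10.11 and 10.17 against 9.80, 10.01 and 9.94, without overlap and with a difference of 0.24 ± 0.07 (limma unadjusted p = 0.0114, adjusted p = 0.296). CHCHD1 differed by 0.22 ± 0.08 and DAP3, the GTP-binding protein of the subunit's head, by 0.27 ± 0.13, or 0.17 without miR-9 LNA array 1. The fourth, GADD45GIP1, differed by 0.06.

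Of the assembly factors, which modify ribosomal RNA or help subunits to mature, 27 were tested, all 27 with a positive difference (14 after quantile normalization, 13 after cyclic loess), and 8 (29.6%) had an unadjusted limma p under 0.05. All tested probe sets gave 13.8% at that p on the higher side and the upper 2 bins of level 24.9% and 31.2%. MRM3, a methyltransferase of the large ribosomal RNA, was at 10.28, 10.26 and 10.23 against 10.03, 10.09 and 10.06, a difference of 0.20 ± 0.06 (limma adjusted p = 0.296) with all arrays apart. METTL17, a factor of small-subunit assembly, differed by 0.30 ± 0.09, and by -0.08 at its brightest probe set without an _s_at or _x_at mark. GRSF1, an RNA-binding protein of mitochondrial RNA granules, differed by 0.23 ± 0.07. These 3 had the smallest p-values of the list.

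All 14 tested translation factors had a positive difference (10 after quantile normalization, 9 after cyclic loess), with a median of 0.18. An unadjusted limma p under 0.05 was found for 3 of them (21.4%), against 13.8% of all tested probe sets on the higher side. That share was 24.9% in the next-to-brightest bin of level and 31.2% in the brightest, and most of these factors lay in those bins. MTIF2, which places the initiator tRNA, was at 11.67, 11.51 and 11.31 on the miR-9 LNA arrays and 11.14, 11.22 and 11.14 on the scrambled ones, a difference of 0.33 ± 0.09 (limma unadjusted p = 0.00871, adjusted p = 0.296). The groups were apart, and after quantile normalization the difference was 0.14. The other initiation factor, MTIF3, differed by 0.20 ± 0.08, or 0.13 without scrambled array 1, and the elongation factor GFM1 by 0.23 ± 0.10.

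Of the 21 tested genes that transcribe, process or degrade mitochondrial RNA, 19 had a positive difference (12 after either normalization), with a median of 0.14, and 7 (33.3%) an unadjusted limma p under 0.05, against 13.8% of all tested probe sets on the higher side and 31.2% of the brightest bin. PNPT1, an RNA-degrading phosphorylase, was at 11.45, 11.47 and 11.44 against 11.07, 11.29 and 11.21, with no overlap, and differed by 0.27 ± 0.07 (limma unadjusted p = 0.00645, adjusted p = 0.296). TRMT10C, part of mitochondrial RNase P, differed by 0.23 ± 0.07 and FASTKD1, an RNA-binding protein, by 0.35 ± 0.13, or 0.22 without scrambled array 1. POLRMT, the RNA polymerase of mitochondria, was at 8.17, 8.26 and 8.22 against 8.42, 8.34 and 8.26, and differed by -0.12 ± 0.07 (limma adjusted p = 0.426). It was named after its value was seen.

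The listed nuclear regulators include those whose motifs were searched above. NRF1 was at 8.10, 8.16 and 8.23 with the miR-9 LNA and 7.93, 7.99 and 8.06 with the scrambled LNA, with the groups apart and a difference of 0.17 ± 0.07 (limma unadjusted p = 0.035, adjusted p = 0.323). GABPA, given here for its motif, differed by 0.18 ± 0.11, YY1 by 0.21 ± 0.11 and PPARGC1B, a coactivator, by 0.21 ± 0.10, all with overlapping groups. Without scrambled array 1 GABPA was at 0.08 and YY1 at 0.09, and the mean over all probe sets of a gene gave -0.00869 for NRF1 and -0.03 for PPARGC1B. All 7 tested regulators had a positive difference, 5 after either normalization, and PPARGC1A was below the filter. Among the members, those with a CCGGAA match had a median difference of 0.15 and those without one 0.17. The medians were 0.18 and 0.15 with and without AAGATGGC, and 0.20 and 0.15 with and without GCATGCGC. The 21 members with none of the 3 motifs had a median of 0.13. These medians are a description, and the gaps between them were not tested.

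**Figure D5:**
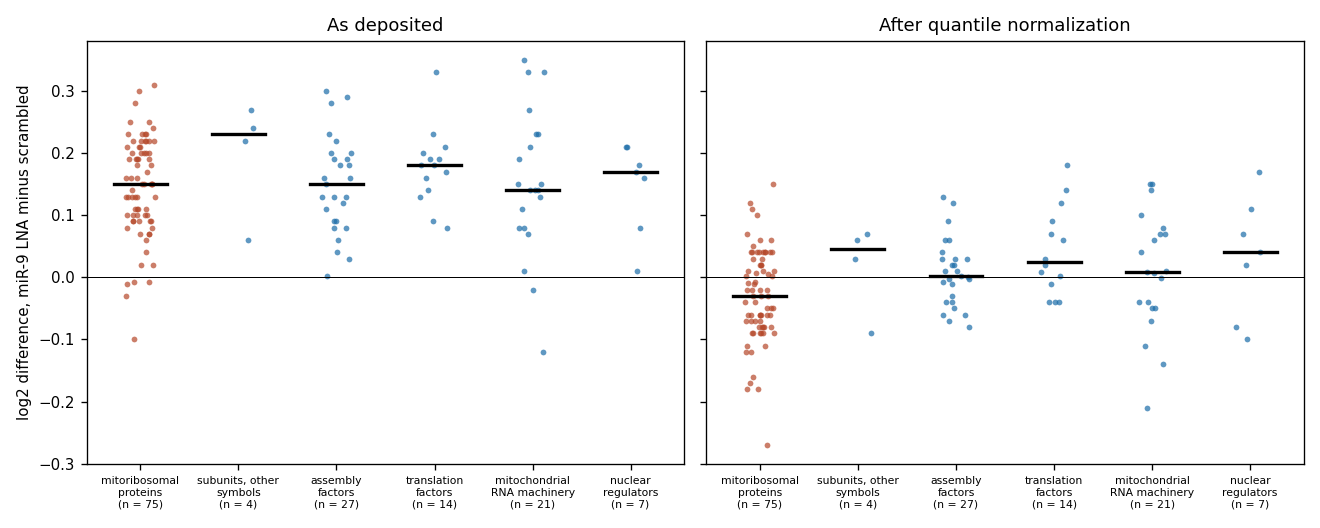
Log2 difference, miR-9 LNA minus scrambled LNA, of each tested gene in the 75 mitochondrial ribosomal protein genes (red) and 5 lists of other genes of mitochondrial translation (blue), as deposited and after quantile normalization; lines are medians. The medians lie between 0.14 and 0.23 as deposited and between -0.03 and 0.04 after quantile normalization.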

How the data were processed

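The authors deposited log2 expression values for 54675 probe sets on 6 arrays, made with the affy package's RMA per the submitters' processing notes. Versions are not given in the sources used here. Their design text describes a limma analysis of genes left after a filter, at no stated threshold. Each array's lowest value lay between 5.97 and 6.08, and no source used here says whether a constant was added. RMA usually ends by giving arrays one distribution; these arrays' distributions differ, and the steps run are not stated.

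After leaving out 62 control probe sets, the 27307 at or above the median level (7.11) were tested with limma 3.58.1 in R 4.3.3 (lmFit, eBayes, two-sided) and Benjamini-Hochberg adjustment over all of them, at a threshold of 0.05. The code was tested on simulated data. Genes were named from the platform annotation: 41091 probe sets had 1 symbol, 1801 several and 11721 none. All 75 members matched the RefSeq gene table by Entrez ID. Microarray levels of different probe sets do not rank transcripts by abundance.

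The members, lists and alternatives were chosen with earlier results of these data known. Named are the 12 members of smallest p, the 6 of most negative difference, the 4 brightest and the 4 dimmest, all members of 6 structural lists, members with opposed probe sets, and up to 3 genes of smallest p in each of 5 pathway lists. The labels number the replicates without saying what same-numbered arrays share. Deviations from group means correlated at r = 0.231, 0.193 and 0.634 between same-numbered arrays and at -0.429 to 0.168 between others. The main fit did not pair the arrays, and the replicate block was run only as an alternative. Alternatives covered the filter, normalization, variance model, array weights, replicate block, probe set choice and leaving out each array. Figures were drawn with matplotlib 3.10.9.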

Additional observations from a re-analysis of the deposited data

How the results depend on the processing

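The count of members past an adjusted p of 0.05 was 0 under every setting run, as was that of the pathway genes, and the lowest adjusted p of a member was 0.121, with array weights. With the replicate block 12 members and 28 of the pathway genes had an unadjusted limma p under 0.05 on the higher side. Over all tested probe sets that share moved from 13.8% to 21.8%. The block changed no call at an adjusted p of 0.05. It could change no sign, since each replicate number occurs in both groups and the differences stay the same. The higher-side count of 10 members was 16 without the level filter, 4 with a variance trend and 5 without both arrays numbered 1. It was 4 of 39 with probe sets that lack an _s_at or _x_at mark (unique probe sets). It was 0 after quantile normalization or cyclic loess, where 3 members each lay on the lower side. Over all tested probe sets the higher-side share was 2.38% and 2.27% under these normalizations in that order, and the lower-side share 2.17% and 2.67%. No such share was computed without the level filter, with a variance trend or without both arrays numbered 1. For pathway genes the main 21 became 1 higher and 1 lower under each normalization and 13 without both arrays numbered 1. Positive differences fell from 70 members to 29 (quantile), 26 (loess), 33 of 39 (unique probe sets), 51 without both arrays numbered 1 and 61 with array weights, and from 71 pathway genes to 44 (quantile) and 42 (loess). Medians became -0.03 (quantile), -0.04 (loess) and 0.03 (without both arrays numbered 1) for members, and 0.01, 0.00889 and 0.11 for pathway genes.

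Leaving out 1 array gave 2 to 14 members on the higher side at that p, 66 to 72 positive and a median of 0.09 to 0.19. The count was 2 without miR-9 LNA array 1 and 4 without scrambled array 1. Over all tested probe sets the higher-side share was 10.0% without scrambled array 1, and it was not computed with another array left out. For pathway genes the ranges were 11 to 24 (11 without miR-9 LNA array 1), 68 to 71, and 0.13 to 0.18. The large-subunit median ranged from 0.08 to 0.20 and the small-subunit one from 0.11 to 0.19. The sign turned for 16 of the 75 members under at least 1 such setting, with 2 to 8 turned per setting. Named with values in the report were MRPL38 (-0.12 to 0.10), MRPL12 (-0.03 to 0.03), MRPL28 (-0.04 to 0.03), MRPL2 (-0.03 to 0.02), MRPL55 (-0.00935 to 0.05), MRPS15 (-0.00562 to 0.14), MRPS18A (-0.02 to 0.10), MRPL11 (-0.03 to 0.21) and MRPS12 (-0.11 to 0.11), and the other 7 were MRPL13, MRPL19, MRPL33, MRPL54, MRPS6, MRPS21 and MRPS31.

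Of the 57 named genes, 16 changed sign after quantile normalization: MRPL10 -0.07, MRPL11 -0.07, MRPL20 -0.09, MRPL23 -0.08, MRPL24 -0.06, MRPL40 -0.02, MRPL46 -0.03, MRPL51 -0.09, MRPL55 -0.06, MRPL58 -0.06, MRPS12 -0.17, MRPS15 -0.11, MRPS18A -0.08, MRPS18C -0.05, MRPS2 -0.02 and MRPS7 -0.04. After cyclic loess 19 did: MRPL10 -0.08, MRPL11 -0.08, MRPL17 -0.00432, MRPL20 -0.09, MRPL23 -0.08, MRPL24 -0.07, MRPL40 -0.03, MRPL46 -0.04, MRPL51 -0.10, MRPL55 -0.07, MRPL58 -0.07, MRPS11 -0.00101, MRPS12 -0.18, MRPS15 -0.10, MRPS18A -0.09, MRPS18C -0.06, MRPS2 -0.03, MRPS7 -0.05 and MRPS9 -0.00335. Array weights gave MRPL11 -0.02, MRPL2 0.00093, MRPS12 -0.04 and MRPS18C -0.00458. The mean of probe sets gave MRPL20 -0.02, MRPL38 0.01, MRPL55 -0.00275, MRPS12 -0.00913, NRF1 -0.00869 and PPARGC1B -0.03. Unique probe sets gave METTL17 -0.08, MRPL4 0.03, MRPS15 -0.00384 and MRPS5 -0.01. Without both arrays numbered 1, an alternative chosen after seeing the data, MRPL10 was at -0.00647, MRPL11 -0.06, MRPL38 0.01, MRPL51 -0.03, MRPL55 -0.01, MRPS12 -0.02, MRPS15 -0.01 and MRPS18C -0.04. The cause was not tested.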

Other observations

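Several mitochondrial ribosomal protein genes share a start region with a neighbour transcribed the other way. In the RefSeq starts (GRCh38.p14), 18 of the 67 members with a listed start (26.9%) had a protein-coding gene on the opposite strand starting upstream within 1000 bases. The same held for 1630 of 15842 protein-coding genes (10.3%), expressed here or not. The share among protein-coding genes tested on these arrays was not computed. The distances ranged from 45 to 990 bases with a median of 206. In one case both genes encode proteins of the mitochondrial ribosome: MRPL46 and MRPS11 start 320 bases apart and differed by 0.13 and 0.19. Each of these members is also counted below as the neighbour of the other. FAU, which encodes a protein of the cytosolic small subunit, starts 49 bases from MRPL49, and they differed by 0.17 and 0.09. SARS2, the mitochondrial seryl-tRNA synthetase, starts 181 bases from MRPS12, and they differed by -0.09 and 0.02. EME1, part of a DNA structure-specific endonuclease, starts 45 bases from MRPL27 and had the largest difference of the neighbours, 0.43 ± 0.15 (limma unadjusted p = 0.0217, adjusted p = 0.303), with means of 9.63 ± 0.10 and 9.20 ± 0.32 under the miR-9 and scrambled LNA. Of the 17 tested neighbours 15 had a positive difference as deposited, against 66.9% of all tested probe sets and 95.3% of the brightest bin. After quantile normalization 10 of the neighbours did, against 51.5% of all tested probe sets. The neighbours' median as deposited was 0.14, and 0 passed an adjusted limma p of 0.05. These neighbours were named after their values were seen.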
